A study of Homo sapiens with 12 samples.

Results

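Vehicle libraries, 6 of a series of 12, were used to find genes higher or lower in 3 chemoresistant lines than in their own chemosensitive parents. No quinacrine (QC) had been given to these cells. The study describes all 6 lines as ovarian cancer lines. HeyA8, SKOV3 and OV2008 are the parental lines, which the labels class as sensitive, and HeyA8_MDR, SKOV3_TR and OV2008_C13 are the resistant lines made from them, classed as resistant. All are established human cell lines and every library used here came from cells given buffer for 6 h; the matching libraries of the same 6 lines had received 8 µM QC, an antimalarial agent, for 6 h. The study's methods describe OV2008_C13 as cisplatin resistant, SKOV3_TR as taxol resistant and HeyA8_MDR as carboplatin resistant, while its label carries the letters MDR and the series text speaks of platinum, so the resistant group was selected with different agents. The HeyA8 pair was grown in another medium than the other pairs. Polyadenylated RNA was sequenced and each line gave 1 vehicle library. Each resistant line is 1 derived line, so the 3 pairs are the only replication. The p-values weigh a difference against a spread between these pairs of lines that is estimated partly from all genes. Of 16091 genes that passed the filter on low counts, 2139 (13.3%) were higher in all 3 resistant lines than in their parent and 2046 (12.7%) were lower in all 3; the remaining 11906 pointed in different directions or were tied. Because the sign in each pair chose these genes, their ratios are given as a description. An exact sign test over 3 pairs gives p = 0.25 at best for each of them, so unrelated pairs would also leave many such genes.

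Acquired drug resistance is commonly described in terms of drug efflux by ATP-binding cassette (ABC) pumps, detoxification by glutathione and aldo-keto reductase enzymes, altered drug targets, DNA repair and a raised threshold for apoptosis. Lipid supply is another such route: cholesterol is built from acetyl-CoA through the mevalonate pathway, whose enzymes are transcribed under the SREBP factors, and stearoyl-CoA desaturase makes the monounsaturated fatty acids of membranes. The sign rule collects genes that differ in the same direction in lines selected with different drugs, whether or not the difference has a shared origin. A pump or target used by only 1 line drops out unless its sign happens to agree in the other pairs.

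Total counts per vehicle library lay between 18739626 and 29884628. They were 24668935 in HeyA8 and 21206002 in HeyA8_MDR, 21604010 in SKOV3 and 29397993 in SKOV3_TR, and lowest in OV2008 and highest in OV2008_C13. Each resistant library had more genes with counts than its parent: 24722 against 23976, 27972 against 24587 and 24945 against 22300 in the same order. Across the 16091 genes, the log2 CPM of the 2 lines of a family correlated at 0.936 for HeyA8, 0.888 for SKOV3 and 0.953 for OV2008, against 0.724 to 0.767 between lines of different families, so each resistant library sat closest to its labelled parent. Against lineage markers, OV2008 and OV2008_C13 held a summed level of 18800 and 6800 CPM over 10 squamous epithelial genes (such as KRT5 and TP63), where the other 4 lines held 177 to 416. Over 10 ovarian or Müllerian genes (such as PAX8 and WT1) OV2008 and OV2008_C13 held 54.1 and 81.1 CPM, where the other lines held 347 to 586. PAX8 alone gave 382 CPM in HeyA8, 332 in HeyA8_MDR, 342 in SKOV3 and 499 in SKOV3_TR, and 7.58 and 19.2 in OV2008 and OV2008_C13, and SOX17 had 0 counts in both of the last. Other members did not follow this order: ESR1 was at 35.1 and 24.3 CPM in OV2008 and OV2008_C13 and at 0.714 and 0.426 in HeyA8 and HeyA8_MDR. The OV2008 family thus had little PAX8, no SOX17 and high squamous markers, while the remaining ovarian markers did not set it apart. Results over all 3 pairs therefore include a family whose squamous markers were far above those of the HeyA8 and SKOV3 families. Summed leukocyte markers stayed between 1.01 and 17.3 CPM and fibroblast markers between 6.44 and 42.3 CPM in the 6 libraries. Endothelial markers reached 99.2 and 154 CPM in HeyA8 and HeyA8_MDR and 0.76 to 10.7 CPM elsewhere. Nearly all of this was CDH5, at 89.9 and 151 CPM in HeyA8 and HeyA8_MDR, where VWF, KDR and TEK were at 5.13 CPM or less. In each library, more genes had a count of 2 than of 1, by 2.39 to 2.63 times, and 66.8% to 68.4% of counts from 1 to 20 were even; whether a low count stands for that many independent molecules was not tested.

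The promoters of 4 genes of lipid synthesis and its control are shown first, because SCD, HMGCS1 and MVD were among the leading genes higher in all 3 resistant lines and SREBF2, also higher in all 3, encodes a factor that acts on such genes. SCD encodes stearoyl-CoA desaturase, HMGCS1 the cytosolic HMG-CoA synthase at the entry of the mevalonate pathway, MVD mevalonate diphosphate decarboxylase further down it, and SREBF2 the SREBP2 factor that drives the pathway. Each stretch is 300 bases from RefSeq on GRCh38.p14, from 250 bases before the annotated start to 50 bases after it, read 5′ to 3′ on the gene's own strand; HMGCS1 is at chr5:43313363-43313662 on the minus strand, MVD at chr16:88663042-88663341 on the minus strand, SCD at chr10:100346983-100347282 on the plus strand and SREBF2 at chr22:41832855-41833154 on the plus strand. Capitals mark the letters CCAAT on either strand, the box bound by NF-Y, and, in SREBF2 only, the sterol regulatory element TCACNCCAC.
HMGCS1: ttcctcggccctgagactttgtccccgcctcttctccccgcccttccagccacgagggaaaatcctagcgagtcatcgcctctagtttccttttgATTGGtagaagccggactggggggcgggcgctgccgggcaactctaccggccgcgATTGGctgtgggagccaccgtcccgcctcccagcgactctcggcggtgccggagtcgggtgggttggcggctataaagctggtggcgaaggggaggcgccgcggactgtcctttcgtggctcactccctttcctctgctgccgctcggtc
MVD: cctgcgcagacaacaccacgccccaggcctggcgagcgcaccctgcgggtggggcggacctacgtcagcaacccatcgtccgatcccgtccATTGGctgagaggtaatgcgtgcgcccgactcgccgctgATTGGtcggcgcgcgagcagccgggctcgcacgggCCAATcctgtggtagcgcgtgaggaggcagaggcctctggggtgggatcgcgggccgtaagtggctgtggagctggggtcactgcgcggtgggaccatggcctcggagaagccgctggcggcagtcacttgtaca
SCD: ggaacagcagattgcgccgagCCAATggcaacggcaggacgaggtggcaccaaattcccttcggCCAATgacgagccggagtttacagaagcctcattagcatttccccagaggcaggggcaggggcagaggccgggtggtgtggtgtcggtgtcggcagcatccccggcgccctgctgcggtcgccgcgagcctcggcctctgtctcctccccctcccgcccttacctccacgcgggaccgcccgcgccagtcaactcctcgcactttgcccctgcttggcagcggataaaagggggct
SREBF2: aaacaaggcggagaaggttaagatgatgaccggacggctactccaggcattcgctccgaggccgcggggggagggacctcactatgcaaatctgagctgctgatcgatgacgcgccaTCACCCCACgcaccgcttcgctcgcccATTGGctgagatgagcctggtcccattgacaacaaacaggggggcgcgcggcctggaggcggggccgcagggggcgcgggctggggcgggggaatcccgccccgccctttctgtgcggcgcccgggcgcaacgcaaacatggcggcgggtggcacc
HMGCS1 held 2 such CCAAT boxes, MVD 3, SCD 2 and SREBF2 1, the last of them after the element TCACCCCAC, which begins 133 bases before the SREBF2 start. Among 17 of the 24 cholesterol synthesis genes with a promoter in the table, 14 (82.4%) held CCAAT and 1 held TCACNCCAC, whereas 35.7% of all 27305 promoters of the same length held CCAAT and 1.15% held TCACNCCAC. The 2 motifs share no overlapping letters in these 4 promoters. Of the genes at least 2-fold higher in all 3 pairs, 69 had a promoter in the table and 26 (37.7%) held CCAAT, and of those at least 2-fold lower 32 had one and 6 (18.8%) held it. A match describes the letters only.

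Only a small share of the genes that kept 1 direction moved far. At least 2-fold in all 3 pairs, 116 genes (0.721% of those tested) were higher and 51 (0.317%) were lower, while single pairs had 1582 to 2915 genes at least 2-fold higher and 1462 to 2210 at least 2-fold lower. The log2 ratios of different pairs were close to unrelated over the 16091 genes, with Pearson's r of 0.07 for HeyA8 with SKOV3, -0.02 for HeyA8 with OV2008 and 0.01 for SKOV3 with OV2008; these are across genes, which share libraries and are not replicates. The median of the smallest of the 3 log2 ratios was 0.23 among the genes higher in all 3 and -0.20 among those lower. SPAG4 and ANK1 lay just inside the 2-fold limit, with a smallest ratio of 2.01-fold for each, and MIR34AHG and HRNR just outside it, at 1.999 and 1.99-fold. On the lower side, PLXDC2 and SLC6A9 lay just inside and PCDHGA7 and IL20RB just outside. Of the 116 genes, 32 had at least 10 counts in every vehicle library and 40 had a parental library at 0, and in 11 all 3 parental libraries were under 10 counts, so those 11 had passed the filter through the resistant libraries. Of the 51 genes, 19 had at least 10 counts in every library, 16 had a resistant library at 0, and in 1 all 3 resistant libraries were under 10. The libraries of the 2 groups did not overlap at all for 41 of the 116 and for 9 of the 51, where 311 of all genes tested (1.93%) lay wholly above and 259 (1.61%) wholly below; since the 2-fold limit favours such genes, nothing is read from these counts.

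No gene passed the edgeR quasi-likelihood test with the family as block after Benjamini-Hochberg adjustment (0% called), where the smallest adjusted p was 0.975. At an unadjusted p under 0.05 the test picked 305 genes (1.9%) as higher and 301 (1.87%) as lower in the resistant lines, 606 in all. Of the 606, 572 pointed the same way in all 3 pairs, where 4185 of all 16091 genes did. DESeq2 with the same family term and the same genes called 17 genes higher (0.106%) and 24 lower (0.149%) at an adjusted p under 0.05. All 41 had an unadjusted edgeR p under 0.05 and 39 kept 1 direction in all 3 pairs. A small p in a fit with the family as block favours genes whose 3 ratios share a sign, so nothing is read from either agreement. With 3 pairs, an exact sign test of a single gene cannot give a p below 0.25. Fitted log2 fold changes below come from edgeR, and their SE was derived from the F statistic of its test. That variance is moderated over all genes, so the SE is not a gene's own spread over the 3 pairs. The adjusted edgeR p of every gene was 0.975 or higher, so none of the differences was called by that test.

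**Figure D1:**
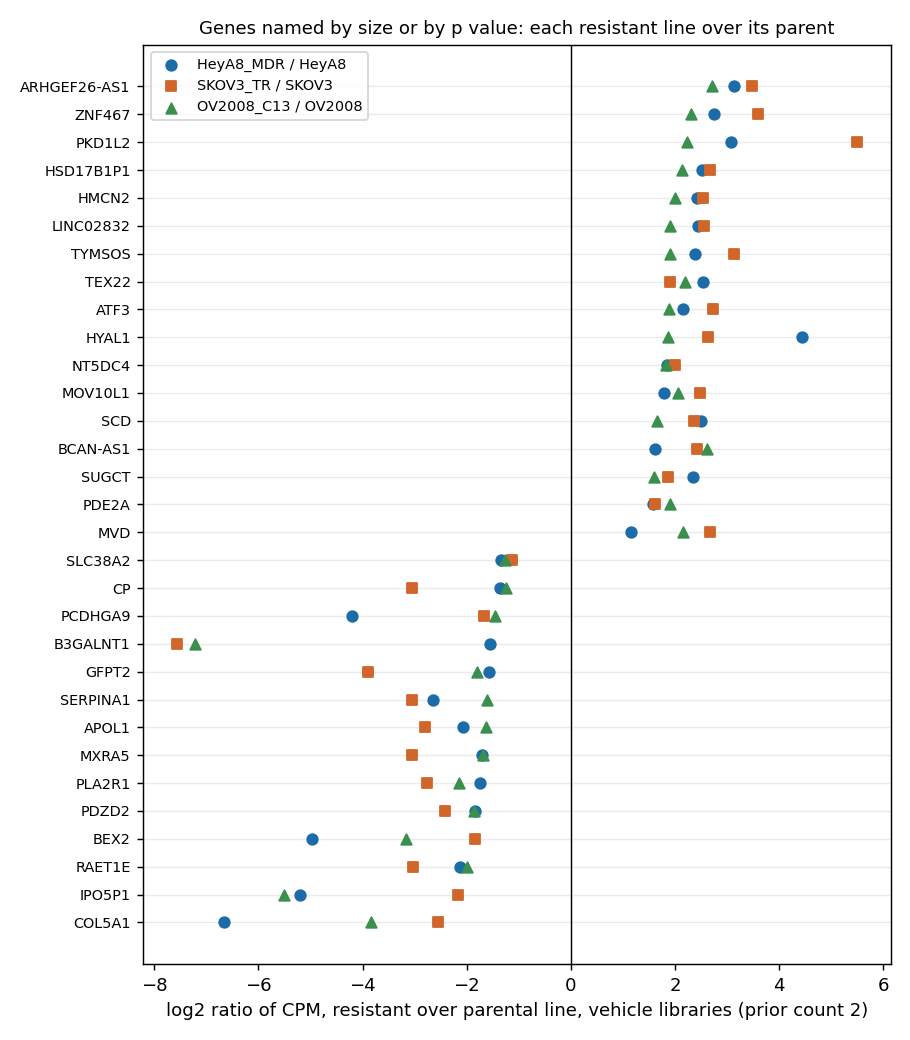
Log2 ratio of CPM, resistant over parental line, in the vehicle libraries (prior count 2), for the 31 genes named by their size or by their p. Circles are the HeyA8 pair, squares the SKOV3 pair and triangles the OV2008 pair, and the vertical line marks no difference. ATF3 lies at 2.15, 2.72 and 1.88, and COL5A1 at -6.66, -2.55 and -3.84, so size agreed more closely between pairs for some genes than for others.

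SCD had the smallest p of all genes. It stood at 120 CPM in HeyA8 and 678 in HeyA8_MDR, at 164 in SKOV3 and 841 in SKOV3_TR, and at 46.4 in OV2008 and 147 in OV2008_C13. Every resistant library was above its parent, by 5.66, 5.13 and 3.17 times, although OV2008_C13 stayed below SKOV3, so the groups overlapped. The fitted log2 fold change was 2.18 ± 0.30 (SE of the fit), and DESeq2 gave an adjusted p of 3.81e-05. HMGCS1 read 26.2 and 78.1 CPM in HeyA8 and HeyA8_MDR, 35.8 and 513 in SKOV3 and SKOV3_TR, and 68.0 and 252 in OV2008 and OV2008_C13, so each of the 3 resistant libraries exceeded every parent. Its log2 fold change was 2.41 ± 0.53 (SE; DESeq2 adjusted p = 0.0119). MVD rested at 25.7, 20.9 and 18.0 CPM in the parents HeyA8, SKOV3 and OV2008 and at 57.0, 134 and 80.2 in the matching resistant lines. Here too the groups did not overlap, and the log2 fold change was 2.0 ± 0.40 (SE; DESeq2 adjusted p = 0.0116).

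The rest of the cholesterol synthesis list leaned the same way. Of its 24 genes, all tested, 13 were higher in all 3 resistant lines and 0 were lower in all 3, where 13.3% and 12.7% of all genes were, and 8 had p under 0.05, all higher, against 1.9% of all genes; none passed the adjusted edgeR threshold. The median log2 fold change of the list was 1.29, beside 0.01 for all genes tested, and its median log2 ratio was 0.73 in the HeyA8 pair, 2.67 in the SKOV3 pair and 0.68 in the OV2008 pair. The difference was thus largest in SKOV3_TR, and the list's median was 0.76 when the SKOV3 pair was left out. MSMO1, a sterol methyl oxidase, went from 30.0 to 59.5 CPM in the HeyA8 pair, from 24.0 to 392 in the SKOV3 pair and from 17.4 to 45.8 in the OV2008 pair (log2 fold change 2.08 ± 0.67 SE). SQLE, squalene epoxidase, showed log2 ratios of 0.83, 2.66 and 1.41 in the same order (log2 fold change 1.63 ± 0.43 SE). LSS, which closes the sterol ring, was nearly even over the pairs, at 0.89, 1.41 and 0.94 (log2 fold change 1.08 ± 0.32 SE). SREBF2 was at 0.94, 2.28 and 0.54 (log2 fold change 1.25 ± 0.41 SE). CYP51A1, lanosterol demethylase, was at 2.10, 3.09 and 0.79 (log2 fold change 2.04 ± 0.67 SE), and its gene lies 4.61 Mb from the ABCB1 start on chromosome 7. Other members did not hold 1 direction, among them EBP, a sterol isomerase, with log2 ratios of 0.14, -2.62 and -0.53. INSIG1, which holds SREBP back when sterols are ample, was at 0.07, 4.38 and 1.74.

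**Figure D2:**
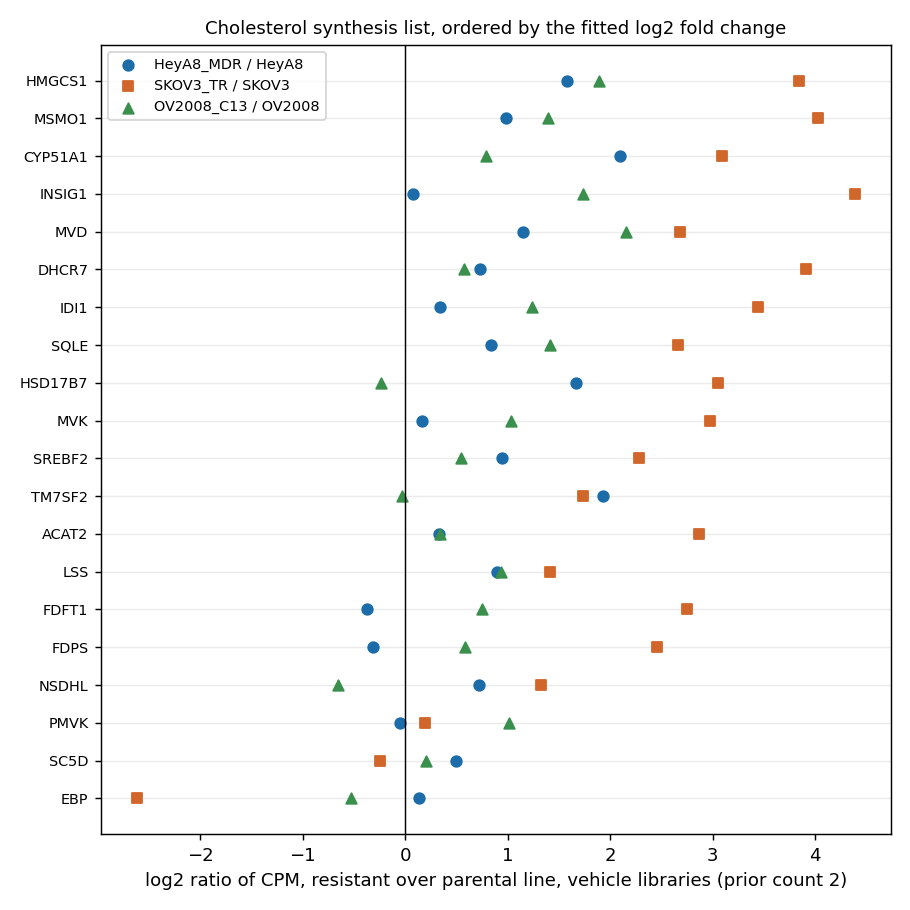
Log2 ratio of CPM, resistant over parental line, in the vehicle libraries for 20 of the 24 genes of the cholesterol synthesis list, ordered by the fitted log2 fold change. Squares (SKOV3 pair) lie farthest to the right for most genes, with a median over the 24 of 2.67 against 0.73 (circles, HeyA8 pair) and 0.68 (triangles, OV2008 pair), and EBP lies at -2.62 in the SKOV3 pair.

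ATF3, a stress-induced transcription factor of the CREB family, was higher by a similar size in each pair. Its level was 8.52 CPM in HeyA8, 6.55 in SKOV3 and 8.48 in OV2008, and 38.1 in HeyA8_MDR, 43.6 in SKOV3_TR and 31.5 in OV2008_C13. The 3 parents and the 3 resistant lines each lay close together and did not overlap. The log2 fold change was 2.26 ± 0.38 (SE; DESeq2 adjusted p = 1.2e-04). Around it, the serine synthesis and amino acid response list had 18 genes tested. Only ATF3 (5.56%) was higher in all 3 and 3 (16.7%) were lower in all 3, beside 13.3% and 12.7% of all genes. SLC38A2, a neutral amino acid transporter, was lower by nearly the same size in each pair, from 468 to 184 CPM in the HeyA8 pair, from 602 to 275 in the SKOV3 pair and from 583 to 244 in the OV2008 pair. The 3 resistant libraries all lay below the 3 parents, and the log2 fold change was -1.24 ± 0.25 (SE; DESeq2 adjusted p = 0.025). SLC7A5, the large neutral amino acid transporter, showed log2 ratios of -1.52, -0.14 and -1.44 (log2 fold change -1.04 ± 0.37 SE), so the SKOV3 pair differed little.

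Among 12 drug efflux pumps and related proteins tested, 2 (16.7%) were higher and 2 (16.7%) lower in all 3 resistant lines. Of all genes tested, 13.3% were higher and 12.7% lower. ABCC2, the multidrug resistance protein MRP2, which exports glutathione conjugates and platinum complexes, counted 78 reads in HeyA8 and 224 in HeyA8_MDR, 27 in SKOV3 and 1841 in SKOV3_TR, and 91 in OV2008 and 2562 in OV2008_C13. On the CPM scale these were 3.48 and 11.9, 1.14 and 56.5, and 5.11 and 83.4, so the parents all lay below the resistant lines, and the folds were 3.37, 46.3 and 16.1. The log2 fold change was 3.82 ± 0.85 (SE; DESeq2 adjusted p = 3.98e-04). ABCA3, a lipid transporter of the lamellar body, was at 4.19 and 34.4 CPM in the HeyA8 pair, 85.7 and 225 in the SKOV3 pair, and 5.22 and 11.8 in the OV2008 pair (log2 fold change 1.85 ± 0.46 SE). Its resistant libraries in the HeyA8 and OV2008 families stayed below the SKOV3 parent. ABCC5, a nucleotide exporter, was lower in all 3, with log2 ratios of -0.74, -0.45 and -1.06 (log2 fold change -0.76 ± 0.28 SE), and the remaining members had no p under 0.05.

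ABCB1, the P-glycoprotein pump that exports taxanes and other hydrophobic drugs, did not keep 1 direction. Its counts were 93 in HeyA8 and 1037 in HeyA8_MDR, 4 in SKOV3 and 11298 in SKOV3_TR, and 682 in OV2008 and 18 in OV2008_C13. The log2 ratios were 3.71, 10.43 and -5.84, which left a fitted log2 fold change of 3.64 ± 3.86 (SE). Of 16 tested genes on a list of its 7q21 neighbours, only ELAPOR2 (6.25%) was higher in all 3 resistant lines and 0 were lower in all 3. The shares over all genes were 13.3% and 12.7%. ELAPOR2 stood at 18.3 and 91.7 CPM in the HeyA8 pair, 5.57 and 38.0 in the SKOV3 pair and 4.55 and 7.22 in the OV2008 pair (log2 fold change 1.94 ± 0.53 SE). The list's median log2 ratio was 1.46 in the HeyA8 pair, 1.19 in the SKOV3 pair and -0.83 in the OV2008 pair. In the same order 12, 9 and 1 of its 16 genes were at least 2-fold higher, where 2107, 2915 and 1582 of all 16091 genes were. At least 2-fold lower were 0, 0 and 6 of them, where 2210, 2042 and 1462 of all genes were. SRI, sorcin, was at 2.54, 1.22 and -0.94, and TMEM243 at 3.27, 0.75 and -0.25. Reads from RUNDC3B, which overlaps ABCB1 in the annotation, could not be told apart from reads of ABCB1 without a stated strand setting.

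**Figure D3:**
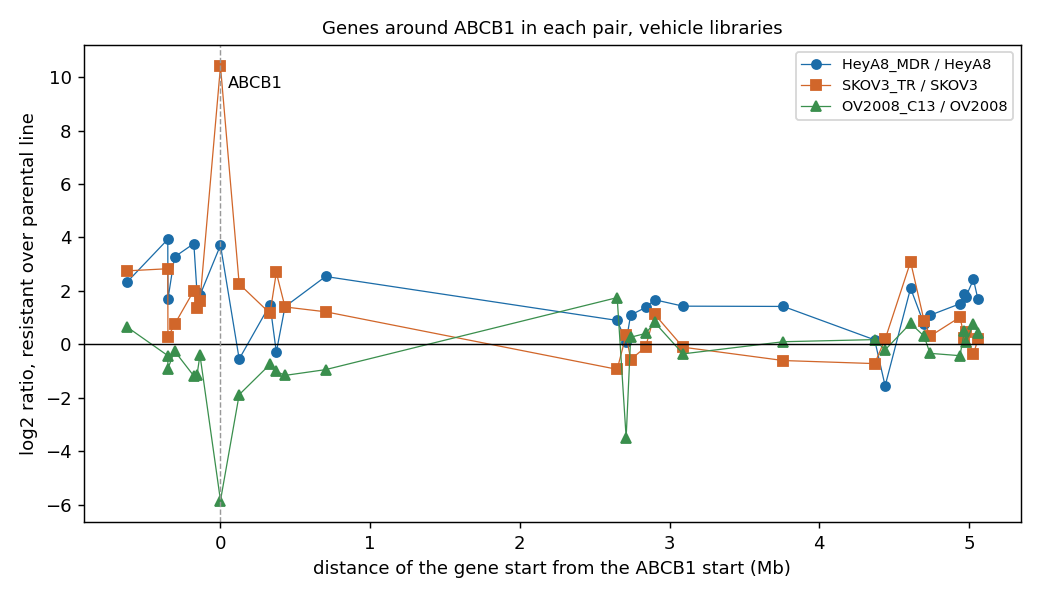
Log2 ratio of CPM, resistant over parental line, in the vehicle libraries for tested genes around ABCB1, plotted against the distance of each gene's start from the ABCB1 start in Mb; lines join neighbouring genes. At ABCB1 itself the HeyA8 pair lies at 3.71, the SKOV3 pair at 10.43 and the OV2008 pair at -5.84.

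Detoxification genes were mixed. Of 25 glutathione and NRF2 genes tested, 7 (28.0%) were higher and 1 (4.0%) lower in all 3 resistant lines. The shares over all genes were 13.3% and 12.7%. On the list, 4 genes had p under 0.05, all higher, where 1.9% of all genes were higher at that p. The list's median log2 ratio was -0.60 in the HeyA8 pair, 0.16 in the SKOV3 pair and 0.82 in the OV2008 pair. AKR1B10, an aldo-keto reductase, had 0 counts in HeyA8 and 13 in HeyA8_MDR, 10 in SKOV3 and 31 in SKOV3_TR, and 72 in OV2008 and 1726 in OV2008_C13, so only the OV2008 pair gave many reads. GSTA4, a glutathione transferase for lipid aldehydes, counted 25 and 50, 80 and 805, and 4 and 17 (log2 fold change 1.86 ± 0.63 SE). HMOX1, heme oxygenase 1, had log2 ratios of 0.30, 3.12 and 1.74 (log2 fold change 1.73 ± 0.62 SE), and GSTP1, the glutathione transferase pi linked to platinum handling, 0.76, 1.28 and 0.26 (log2 fold change 0.77 ± 0.30 SE). SLC7A11, the cystine importer, was at -4.24, -2.46 and 1.20, and AKR1C1, which shares reads with near-identical AKR1C genes and is uncertain for that reason, at -2.69, -3.88 and 3.07. On a separate list of aldehyde dehydrogenases and cytochrome P450 genes, 14 were tested. Of these 1 was higher and 1 lower in all 3 (7.14% each), beside 13.3% and 12.7% of all genes. The higher 1 was ALDH3B1, an aldehyde dehydrogenase, at 0.94, 0.91 and 1.61 (log2 fold change 1.15 ± 0.31 SE). The lower 1 was CYP1B1, a cytochrome P450, at -2.48, -0.90 and -0.90 (log2 fold change -1.33 ± 0.43 SE).

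COL5A1, a chain of type V collagen, had the largest smallest-of-3 ratio on the lower side. Its counts were 666 in HeyA8 and 4 in HeyA8_MDR, 1951 in SKOV3 and 455 in SKOV3_TR, and 36 in OV2008 and 2 in OV2008_C13. The resistant line of each family was far below its parent, although SKOV3_TR stayed above OV2008. The log2 fold change was -4.57 ± 0.999 (SE; DESeq2 adjusted p = 1.38e-04). Of 39 collagens, laminins and integrins tested, 7 (17.9%) were lower in all 3 resistant lines, where 12.7% of all genes were. In the other direction, 1 (2.56%) was higher in all 3, where 13.3% of all genes were. Of the 4 with p under 0.05, 3 were lower, where 1.87% of all genes were lower at that p. ITGA6, a laminin-binding integrin, was at 715 and 498 CPM in the HeyA8 pair, 427 and 100 in the SKOV3 pair and 663 and 337 in the OV2008 pair (log2 fold change -1.19 ± 0.38 SE). COL4A1, a basement membrane collagen, was the single member higher in all 3 (log2 ratios 0.64, 1.75 and 0.42). The median fitted log2 fold change of the list was -0.20. After correction for GC content and length, the median of each gene's mean over the 3 pair ratios was -0.01, which is another measure than the fitted value.

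Other leading genes on the lower side had varied roles. APOL1, an apolipoprotein of innate immunity, was at 21.3 and 5.0 CPM in the HeyA8 pair, 325 and 46.6 in the SKOV3 pair and 47.5 and 15.3 in the OV2008 pair (log2 fold change -2.18 ± 0.34 SE; DESeq2 adjusted p = 3.72e-04). PDZD2, a PDZ-domain scaffold protein, went from 43.2 to 12.1, from 4.14 to 0.706 and from 73.0 to 20 CPM in the same order (log2 fold change -2.07 ± 0.36 SE; DESeq2 adjusted p = 6.37e-04). Both were lower by 3 or more times in each pair while the levels of the families were far apart, so the groups overlapped. PLA2R1, a phospholipase A2 receptor, had log2 ratios of -1.75, -2.75 and -2.15 (log2 fold change -2.27 ± 0.50 SE), GFPT2, a glucosamine-forming enzyme, -1.57, -3.90 and -1.81 (log2 fold change -2.50 ± 0.58 SE), and MXRA5, a matrix remodelling protein, -1.71, -3.05 and -1.69 (log2 fold change -2.36 ± 0.49 SE). CP, ceruloplasmin, the copper-carrying ferroxidase, had 12 counts in HeyA8 and 3 in HeyA8_MDR, 6876 in SKOV3 and 1146 in SKOV3_TR, and 2 in OV2008 and 0 in OV2008_C13. Only the SKOV3 pair expressed it at a level where the ratio is measured well. BEX2 (56 and 0, 507 and 192, 188 and 34 counts), B3GALNT1 (893 and 253, 911 and 4, 216 and 0), RAET1E (115 and 21, 14 and 0, 67 and 27), SERPINA1 (166 and 21, 134 and 20, 3 and 0), PCDHGA9 (32 and 0, 292 and 125, 44 and 26) and the pseudogene IPO5P1 (66 and 0, 438 and 132, 65 and 0), each as parent and resistant line for HeyA8, SKOV3 and OV2008, had at least 1 resistant library at 0. PCDHGA9 shares exons with its gene cluster, and IPO5P1 resembles IPO5, so their counts are uncertain.

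On the higher side, the top of the list by smallest ratio was mostly of low count. The antisense RNA ARHGEF26-AS1 had 0 counts in all 3 parents and 12, 27 and 14 in HeyA8_MDR, SKOV3_TR and OV2008_C13. ZNF467, a zinc finger factor, had 2 and 20, 12 and 230, and 0 and 10 counts. PKD1L2, a polycystin-like protein, had 5 and 47, 4 and 364, and 6 and 58, so it passed the filter only through the resistant libraries. HYAL1, a hyaluronidase, had 0 and 32, 10 and 100, and 71 and 453 counts. Several others of this size, HSD17B1P1, HMCN2, LINC02832, TEX22, NT5DC4 and MOV10L1, had a parental library at 4 counts or fewer. TYMSOS, which lies opposite TYMS, had 36 and 165, 8 and 118, and 27 and 182 counts, and TYMS, thymidylate synthase, was itself higher in all 3, from 78.0 to 126, from 13.9 to 40.9 and from 70.9 to 126 CPM (log2 fold change 1.02 ± 0.31 SE). The genes lie on opposite strands of one locus, and with no stated strand setting their reads cannot be told apart. SUGCT, a mitochondrial CoA transferase, was at 17.7 and 90.5, 0.718 and 2.83, and 0.225 and 0.846 CPM (log2 fold change 2.10 ± 0.39 SE; DESeq2 adjusted p = 0.0107). PDE2A, a cyclic nucleotide phosphodiesterase, was at 61.1 and 183, 0.634 and 2.12, and 0.112 and 0.651 CPM (log2 fold change 1.81 ± 0.36 SE). In both genes the HeyA8 family had nearly all the reads. BCAN-AS1, an antisense RNA, had 204 and 530, 120 and 892, and 40 and 434 counts (DESeq2 adjusted p = 0.00133).

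Long non-coding RNAs made up a larger share of the genes higher in all 3. They were 477 of 2139 (22.3%) of these, 134 of 2046 (6.55%) of the genes lower in all 3 and 13.1% of the genes tested; among genes at least 2-fold higher they were 50 of 116 (43.1%), against 3 of 51 lower. Of 2102 lncRNAs tested, 22.7% were higher and 6.37% lower in all 3 resistant lines, while of 13117 protein-coding genes 11.6% were higher and 13.9% lower. Transcript properties moved with direction as well. The median length was 2560 bases in the genes higher in all 3 and 4780 in those lower, beside 3540 for all, and the median GC content was 51.9%, 44.3% and 47.9%. In the shortest tercile of genes 20.2% were higher in all 3, and in the longest 7.39%. The median log2 ratio of the GC-poorest tercile was -0.38 in the HeyA8 pair and -0.11 in the SKOV3 pair, and that of the GC-richest 0.26 and 0.17, whereas the OV2008 pair went from 0.06 to -0.04. After each pair's ratios were corrected for GC content and length, 20.4% of lncRNAs were still higher and 8.56% lower in all 3, and 1561 of the 2139 genes higher in all 3 and 1428 of the 2046 lower kept their direction. The part of RNA quality in these values was not tested, nor was the part of sequencing depth in the lncRNA shares.

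Genes of proliferation, apoptosis and DNA repair did not form a uniform group. Among 34 cell cycle and replication genes tested, 6 (17.6%, beside 13.3% of all genes) were higher and 0 lower in all 3 resistant lines, with medians of -1.09 in the HeyA8 pair, 1.63 in the SKOV3 pair and 0.01 in the OV2008 pair. CDT1, which licenses origins, was at 0.70, 2.41 and 1.05 (log2 fold change 1.38 ± 0.43 SE), and PCNA, the replication clamp, at 0.89, 0.92 and 0.65 (log2 fold change 0.82 ± 0.26 SE). CENPF, a mitotic kinetochore protein, went the other way in the HeyA8 pair, from 370 to 7.98 CPM, while the SKOV3 pair went from 131 to 342 and the OV2008 pair from 144 to 136. Of 28 BCL2 family and death receptor genes, 5 (17.9%) were higher and 4 (14.3%) lower in all 3, beside 13.3% and 12.7% of all genes. BCL2L1, which encodes the anti-apoptotic BCL-XL, went from 371 to 730 CPM in the HeyA8 pair, from 76.0 to 220 in the SKOV3 pair and from 238 to 310 in the OV2008 pair (log2 fold change 0.96 ± 0.32 SE). Of 39 DNA repair genes 3 (7.69%) were higher and 4 (10.3%) lower in all 3. REV3L, the catalytic subunit of translesion polymerase zeta, was lower at -2.37, -0.71 and -0.68 (log2 fold change -1.24 ± 0.45 SE). Of 22 p53 targets 4 (18.2%) were higher and 1 (4.55%) lower in all 3. BTG2 was at 2.42, 1.26 and 0.33 (log2 fold change 1.34 ± 0.49 SE) and PLK2 at 0.11, 2.07 and 1.57 (log2 fold change 1.26 ± 0.45 SE).

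Immune genes differed by list and by family. Of 34 interferon-stimulated genes tested, 6 (17.6%) were lower in all 3 resistant lines, where 12.7% of all genes were. In the other direction 0 were higher in all 3, where 13.3% of all genes were. On this list 5 genes had p under 0.05, all lower, where 1.87% of all genes were lower at that p. The list median was -0.77 in the HeyA8 pair and -1.04 in the SKOV3 pair but 0.26 in the OV2008 pair. The fitted median was -0.58, and it was -0.22 without the HeyA8 pair, -0.11 without the SKOV3 pair and -1.05 without the OV2008 pair. SAMD9, an antiviral factor, was at 57.9 and 5.0 CPM in the HeyA8 pair, 81.0 and 14.6 in the SKOV3 pair and 37.9 and 20.5 in the OV2008 pair (log2 fold change -2.30 ± 0.59 SE; DESeq2 adjusted p = 0.0357). PARP9 and its partner DTX3L, neighbours that act as one complex, were at -1.17, -1.54 and -0.81 (log2 fold change -1.18 ± 0.34 SE) and at -0.74, -1.39 and -0.71 (log2 fold change -0.95 ± 0.30 SE). OAS2 was lower too, at -1.90, -2.93 and -0.41, and GBP2 was at -3.53 and -1.94 in the HeyA8 and SKOV3 pairs, while OV2008 and OV2008_C13 had 2 counts of it each. IFI44L, another target of interferon, was at -2.43 and -3.65 in the HeyA8 and SKOV3 pairs, and in the OV2008 pair its counts went from 0 to 140. Antigen presentation genes had medians of 0.44, -0.75 and 0.36 in the HeyA8, SKOV3 and OV2008 pairs. ERAP2, a peptidase that trims antigens, was the 1 of 17 antigen presentation genes (5.88%) lower in all 3, at -0.98, -0.75 and -1.0 (log2 fold change -0.91 ± 0.26 SE). Inflammatory cytokines split by family, with list medians of -2.02, -0.67 and 1.40 over 18 genes. IL1B was the 1 member (5.56%) lower in all 3. It went from 902 to 225 CPM in the HeyA8 pair, from 7.64 to 0.614 in the SKOV3 pair and from 181 to 150 in the OV2008 pair (log2 fold change -1.90 ± 0.67 SE).

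Epithelial and mesenchymal genes gave no common state. KRT19, a simple epithelial keratin, was lower in all 3 at -1.22, -1.39 and -0.92 (log2 fold change -1.23 ± 0.30 SE), but HeyA8 and HeyA8_MDR had only 8 and 2 counts of it. EPCAM, an epithelial adhesion molecule, had log2 ratios of -4.48 and -4.02 in the HeyA8 and SKOV3 pairs and -0.13 in the OV2008 pair (log2 fold change -2.84 ± 1.08 SE). AXL, a receptor tyrosine kinase often raised in resistant cells, was at 1473 and 1854 CPM in the HeyA8 pair, 120 and 397 in the SKOV3 pair and 57.9 and 211 in the OV2008 pair (log2 fold change 1.32 ± 0.39 SE). SOX9, a progenitor transcription factor, was at 0.71, 5.45 and 2.63 (log2 fold change 2.83 ± 1.04 SE). Over the lists, 2 of 16 epithelial genes (12.5%) were higher and 3 (18.8%) lower in all 3. At an unadjusted edgeR p under 0.05, 2 epithelial genes were higher and 2 lower, where 1.9% and 1.87% of all genes were. The epithelial list medians were 0.07 in the HeyA8 pair, -0.95 in the SKOV3 pair and -0.01 in the OV2008 pair, so KRT19 and EPCAM alone do not describe the list. Of 19 mesenchymal genes 6 (31.6%) were higher and 1 (5.26%) lower, beside 13.3% and 12.7% of all genes. The mesenchymal list medians were -0.48 in the HeyA8 pair, 0.37 in the SKOV3 pair and 0.66 in the OV2008 pair, so the HeyA8 pair leaned the other way.

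The study's own question concerned ribosome biogenesis, and as a list its genes differed little between the vehicle groups. Single genes such as POLR1A kept 1 direction in all 3 pairs, but none was called by edgeR at an adjusted p under 0.05. GNL3, which encodes nucleostemin, was at 112 and 95.0 CPM in the HeyA8 pair, 86.0 and 106 in the SKOV3 pair and 145 and 189 in the OV2008 pair. The resistant line was higher in 2 of the 3 families, and the log2 fold change was 0.15 ± 0.28 (SE). By Western blot the paper reported more nucleostemin protein in HeyA8_MDR and OV2008_C13 than in their parents. The values here are RNA, which was lower in HeyA8_MDR and higher in OV2008_C13. POLR1A, the catalytic subunit RPA194 of RNA polymerase I, was lower in all 3 resistant lines, at 193 and 97.9, 125 and 73.6, and 240 and 149 CPM (log2 fold change -0.81 ± 0.26 SE). Of 32 nucleolar and RNA polymerase I genes tested, 5 (15.6%) were higher and 2 (6.25%) lower in all 3. Their median was 0.13 beside 0.01 for all genes (0.03 without the OV2008 pair). Platinum and copper handling (14 tested) had 3 genes higher and 3 lower in all 3 (21.4% each), and DNA methylation enzymes (7) had 0 and 2 (28.6% lower). Tubulins and microtubule proteins (16) had 1 and 1 (6.25% each). Growth factor receptors and ligands (21) had 2 and 1 (9.52% and 4.76%), and stem cell, Wnt and Notch genes (17) had 2 and 2 (11.8% each). Of all genes, 13.3% were higher and 12.7% lower. No cancer-testis antigen passed the filter.

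Genes with 1 direction were unevenly spread over the chromosomes, a view chosen after the values had been seen. On chromosome 22, 31.0% of 361 tested genes were higher in all 3 resistant lines and 3.88% lower, on chromosome 20 23.8% and 5.76%, and on chromosome 14 22.0% and 5.56%. Chromosome 3 had 6.64% higher and 23.4% lower, chromosome 15 had 6.46% and 22.7%, chromosome 12 had 8.81% and 18.9%, and chromosome 17 had 9.23% and 18.6%. The pairs did not contribute alike. The median log2 ratio on chromosome 22 was 0.43 in the HeyA8 pair, 0.47 in the SKOV3 pair and 0.00 in the OV2008 pair; on chromosome 14 it was -0.11, 0.60 and 0.16, and on chromosome 3 it was -0.16, -0.31 and -0.09. With the correction for GC content and length, the shares higher were 26.0% on chromosome 22, 22.3% on chromosome 20 and 24.4% on chromosome 14, and the shares lower 19.3% on chromosome 3, 19.2% on chromosome 15, 17.2% on chromosome 12 and 21.3% on chromosome 17. Copy number was not measured here, so its part was not tested.

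**Figure D4:**
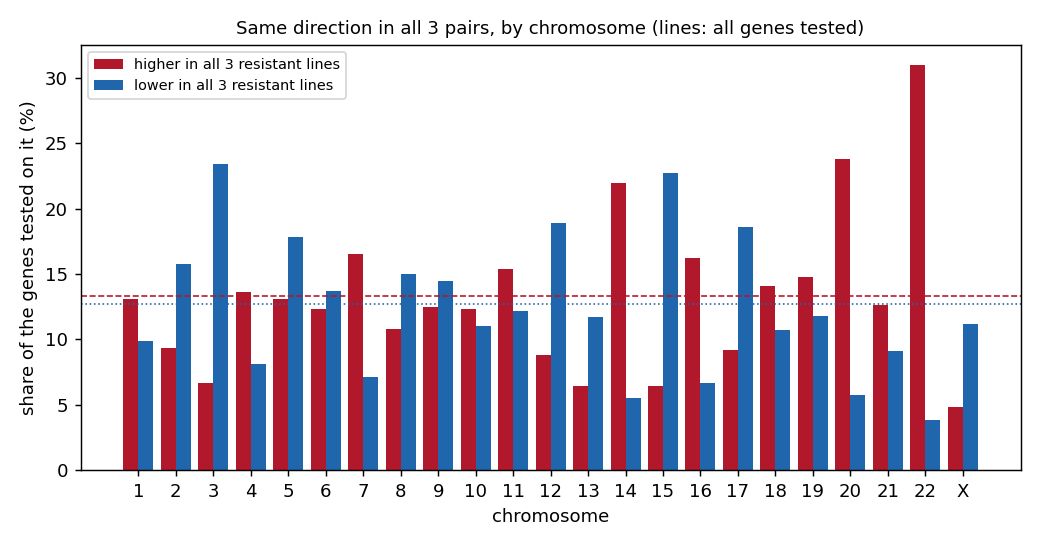
Share of the tested genes on each chromosome, in percent, that were higher (left bars) or lower (right bars) in all 3 resistant lines than in their parents, vehicle libraries; the dashed and dotted lines mark the shares over all genes, 13.3% and 12.7%. Chromosome 22 has the tallest bar for higher genes, at 31.0%, and chromosome 3 for lower genes, at 23.4%.

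The QC libraries of the same lines, which the sign rule did not use, served as a second measurement of each pair. In them, 12.4% of genes were higher and 13.5% lower in all 3 resistant lines over the 16091 genes tested. Of the 2139 genes higher in all 3 vehicle pairs, 955 (44.6%) were higher in all 3 QC pairs too, and of the 2046 lower, 1087 (53.1%) were lower. Of the genes at least 2-fold apart, 64 of 116 and 39 of 51 kept their direction in all 3 QC pairs. These are separate libraries of the same cells and treated with QC, so they show how far a line's state was seen again and not how far other lines share it. The HeyA8 QC library stood apart. Over the genes at least 2-fold different between HeyA8 and HeyA8_MDR with vehicle, its median position was 0.447 on a scale where the parent is 0 and the resistant line 1, whereas the QC libraries of SKOV3 and OV2008 lay at 0.052 and 0.2 on their own scales. The HeyA8_MDR QC library lay at 0.817, and those of SKOV3_TR and OV2008_C13 at 0.969 and 0.894. With 1 library of each, an effect of QC and a feature of the HeyA8 QC library itself cannot be told apart, and the shares over 3 QC pairs rest on it. Without the HeyA8 pair, 1352 of the 2139 (63.2%) and 1393 of the 2046 (68.1%) kept their direction in both remaining QC pairs, where 25.4% of all genes were higher and 24.1% lower in both.

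Single members behaved differently in these libraries. ABCC2 had log2 ratios of 0.24, 6.68 and 4.07 in the HeyA8, SKOV3 and OV2008 QC pairs, HMGCS1 0.46, 4.75 and 2.06, MVD 0.51, 2.64 and 2.58, and SCD 0.78, 1.17 and 4.03. All 12 of these values were above 0, and those of the HeyA8 pair were the smallest for each gene. ATF3 was at 0.75, 0.50 and 0.62, less than in the vehicle libraries in each pair. COL5A1 was at -6.49, -2.67 and -5.30, PLA2R1 at -1.68, -2.69 and -2.43, and POLR1A at -1.25, -0.85 and -0.89, each on the same side as with vehicle. APOL1 was at -1.07, -2.50 and 0.01, so the OV2008 pair no longer differed, and ADAMTS1, a matrix protease at 1.12, 4.62 and 2.25 with vehicle, was at -0.65, 5.57 and 0.72 with QC. Over the 116 genes the median log2 ratio with QC was 0.37 in the HeyA8 pair, 1.76 in the SKOV3 pair and 1.15 in the OV2008 pair, beside 1.79, 1.99 and 1.58 with vehicle. Of the 167 genes at least 2-fold apart, only PFN4, named after its values were seen, was opposite in all 3 QC pairs.

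**Figure D5:**
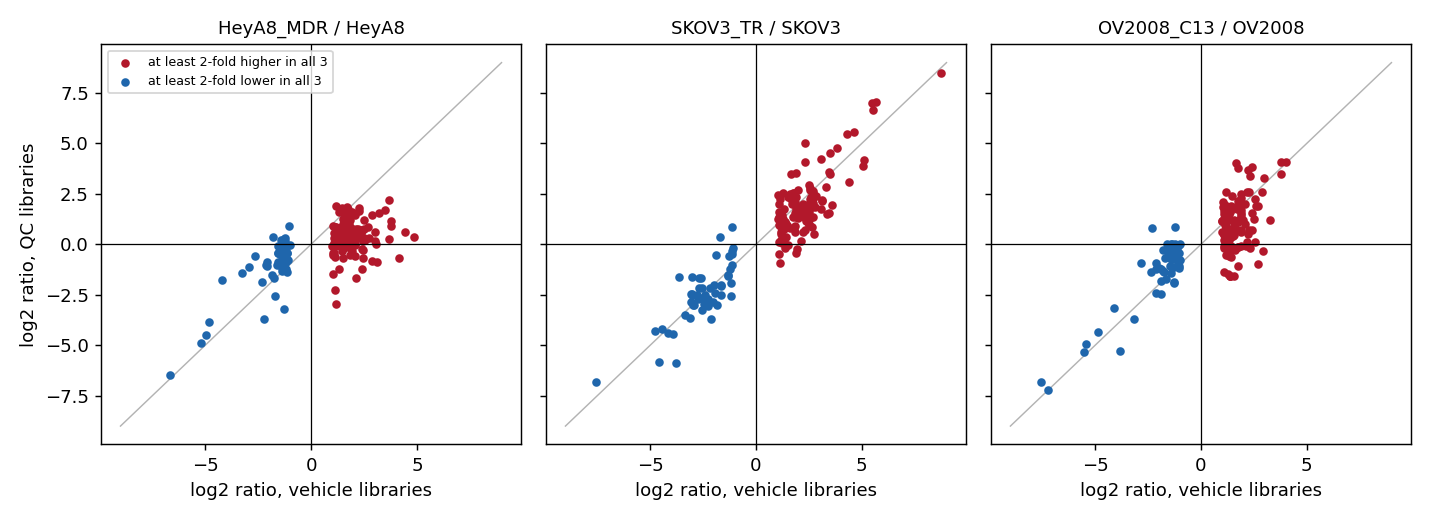
Log2 ratio of CPM, resistant over parental line, in the QC libraries against the vehicle libraries, for the genes at least 2-fold higher (116) or lower (51) in all 3 vehicle pairs; the grey line marks equal values. In the HeyA8 panel the higher genes lie mostly below the grey line, with a median of 0.37 with QC against 1.79 with vehicle.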

How the data were processed

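Gene counts came from 1 table of 12 libraries, of which the 6 vehicle libraries entered the tests and the 6 QC libraries served for the check of direction. The authors deposited raw counts per gene without normalization. The paper's methods name TopHat, hg19 and HTSeq, whereas the submitters' processing notes name STAR 2.7.3a, HTSeq 0.6.1p1 and GRCh38.p13; which of them made the table is not settled here, and the strand setting is not given in the sources used here. Symbols came from a reference table by Ensembl ID, which paired 58620 of 60669 IDs; positions and promoters are RefSeq's on GRCh38.p14, and gene types, length and GC content are those of GENCODE on GRCh37 (longest transcript).

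Genes were kept by edgeR's filterByExpr (minimum count 10, minimum total 15) and scaled by TMM. Log2 ratios of CPM (counts scaled to library size) per pair used a prior count of 2. The two-sided quasi-likelihood test had the isogenic family as block, with p adjusted by Benjamini-Hochberg over 16091 genes (residual degrees of freedom 2, common dispersion 0.245). Pairing came from the cell line label, and libraries of a family correlated at 0.888 to 0.953. R 4.3.3, edgeR 4.0.16, limma 3.58.1, DESeq2 1.42.0 and Python 3.11.15 were used, and the scripts were tested on simulated data. Genes named were the 12 largest by the smallest of 3 ratios in each direction, the 10 with the smallest p, list members at least 2-fold apart in all 3 pairs or among the 3 smallest p of a list, members with the largest change in a pair, and the genes the study names. COL4A1, ADAMTS1, SPAG4 and other genes named for a limit or an example were picked after their values were seen. The members and lists were chosen with earlier results of these data known. Some members of the lists are counted but not reported here by name. Alternatives were another scaling, filter, prior count or tool, the fit without the block and each pair left out; correction for GC content and length (loess) and thinning to the lowest total were added after the data had been seen.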

Additional observations from a re-analysis of the deposited data

How the results depend on the processing

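The count of genes called at an adjusted p under 0.05 was 0 in the edgeR fit and in all its alternatives except 2: DESeq2 with the family term called 41, and edgeR without a filter on low counts called 146 of 36276 genes; the cause was not tested. At an unadjusted p under 0.05 the fit gave 606 genes, the fit with no replicate block (no pairing by family) 104, DESeq2 1058 and no filter 1583, and leaving out a pair 572 to 705. Leaving out a pair asks for agreement in 2 pairs instead of 3, by its construction, and gave 3902 to 4234 genes higher, 3833 to 4234 lower, 322 to 615 at least 2-fold higher and 239 to 408 at least 2-fold lower. Without a filter 3361 genes were higher in all 3, 257 at least 2-fold higher and 91 at least 2-fold lower; with at least 10 counts in every library, which tests fewer genes, 36 and 19 were at least 2-fold higher and lower. With library size alone in place of TMM, 2363 genes were higher and 1809 lower in all 3, 2082 and 1750 of them shared with the TMM result.

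Of 207 alternative values of 23 list medians, 202 moved by less than the spread between the 3 pairs, which was wide: the interferon-stimulated list ran from -1.05 to -0.105 (-0.578 in the fit) with a pair left out. The exceptions were the efflux pumps, at 0.44 (0.12 in the fit) without the SKOV3 pair (range over pairs left out -0.153 to 0.44), the collagens, laminins and integrins, at -0.0127 after the GC and length correction, the stem cell, Wnt and Notch list, -0.256 to 0.237 with a pair left out, and the DNA methylation enzymes, at -0.0464 with no block and -0.288 to 0.0518 with a pair left out. List medians after the GC and length correction were taken over each gene's mean of the 3 corrected pair ratios, not over fitted values. Of 454 alternative values of 57 single genes 1 reversed its sign: ABCB1 was at -0.97 without the SKOV3 pair and 3.64 in the fit, with a range of -0.97 to 6.83 over the pairs left out. Without a block, no gene passed the adjusted threshold. Thinned to the lowest total, 81 genes were at least 2-fold higher and 46 lower, and 32 of the 116 and 19 of the 51 had at least 10 counts in every library, so ratios of the others rest on few counts.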
